A study of Mus musculus with 16 samples.

Results

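The genes examined here are 44 mouse genes of DNA replication and S phase, named one by one: the subunits and loaders of the replicative helicase, the replicative polymerases with primase, the sliding clamp with its loader, the enzymes of deoxynucleotide supply, the maintenance methylation pair Uhrf1 and Dnmt1, and a few regulators of S phase entry. Of the 44, 42 had a probe set annotated to 1 gene, and all 42 passed the filter on dim genes, among 16760 genes tested of 22180 measured. Rfc4, a clamp loader subunit, and Ccne2, an S phase cyclin, lay only on probe sets annotated to several genes and were given no value. The list names genes and uses no measured value, but it was chosen with earlier results of these data known.

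The arrays measured RNA of regulatory T cells (Treg cells), the CD4+ T cells that restrain immune responses under the transcription factor Foxp3. All 4 groups were C57BL/6 mice carrying Foxp3-Cre, a recombinase whose expression in Foxp3-positive cells deletes floxed Atg7 there and not in other cells. Atg7 encodes the E1-like enzyme of autophagy. Control mice were Atg7+/flFoxp3-Cre (called Atg7+/-) and had therefore lost 1 copy as well, and the others were Atg7fl/flFoxp3-Cre (Atg7-/-). Each genotype was left untreated or received rapamycin, which inhibits the mTOR kinase, at 4 mg per kg once a day for 5 days by intraperitoneal injection. The labels name no vehicle for the untreated mice. CD4+Foxp3-YFP+ cells from spleen and lymph nodes of every group were sorted. They were then held 4 h on plates coated with antibodies against CD3, part of the antigen receptor, and CD28, a co-stimulatory receptor. Each group had 4 arrays, 16 in all, and mouse ages are not given in the labels. Nothing in the labels ties the replicates to separate animals, so the p-values describe the spread between these samples, part of which may be technical.

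Before a cell copies its DNA, the origin recognition complex (Orc1 to Orc6) with Cdc6 and Cdt1 loads the Mcm2 to Mcm7 ring on each origin. Mcm10, Cdc45 and the GINS complex turn that ring into a moving helicase, primase and the polymerases alpha, delta and epsilon copy the strands, and the clamp Pcna, Fen1 and Lig1 join the pieces. Ribonucleotide reductase, thymidylate synthase and related enzymes supply the precursors, Uhrf1 and Dnmt1 copy methylation marks onto the new strand, Chek1 slows forks in trouble, and E2f transcription factors with cyclin E drive many of these genes at S phase entry.

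Promoter sequence is shown first because E2f proteins are known to bind near the start sites of many replication genes. RefSeq promoter windows (mouse GRCm38.p6, 250 bases before to 50 bases after each start) were held for 36 of the 44 genes. No window was held for Mcm4, Gins1, Gins2, Gins4, Rfc2, Pole, Prim2 and Ccne2. The letters TTTNNCGC, searched on both strands (GCGNNAAA on the other), occurred in windows of 17 of the 36 genes, 47.2%. They occurred in 5.93% of all 27025 genes with a window and in 8.4% of the 12971 of those that were tested here. CCAAT (or ATTGG) occurred in 21 of the 36, 58.3%, against 41.1% of all genes with a window and 41.3% of those tested. GGGCGG (or CCGCCC) occurred in 28, 77.8%, against 38.2% of all genes with a window and 58.9% of those tested. No motif contains another, though matches of different motifs can overlap. A match describes letters and is not a site, and no match concerns this window only.

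The stretches below belong to genes whose differences are described in the results. Capitals mark TTTNNCGC or its reverse complement. The Dnmt1 stretch, 228 to 199 bases upstream of the most downstream of its 3 annotated starts, holds overlapping matches, and Dnmt1 is the only gene with a match among the 6 replication genes that were higher in untreated Atg7-/- cells. Of the called genes with a window, matches lay in 3 of 3 higher and 0 of 1 lower with rapamycin in Atg7+/- cells, and in 2 of 3 higher and 2 of 8 lower with rapamycin in Atg7-/- cells. Among all 35 tested replication genes with a window, 17 had a match, 48.6%, and the split by direction was not tested. Gins4 and Rfc2, called higher with rapamycin, had no window, and the only match of Pole2 began 11 bases into the transcribed part. Rrm2, with the largest difference of the 6 genes higher in untreated Atg7-/- cells, had no match upstream of its start. Mcm7, which rose with rapamycin in both genotypes, Uhrf1, which fell with it in Atg7-/- cells, and Chek1 were added after their values were seen. Bases run 5′ to 3′ on the gene's strand, and the 4 longer stretches end at the base before the start.
Dnmt1, chr9:20952822-20952851, minus strand: tttccgcgcGCGCGAAAAAgccggggtctc
Rrm2, chr12:24708004-24708253, plus strand: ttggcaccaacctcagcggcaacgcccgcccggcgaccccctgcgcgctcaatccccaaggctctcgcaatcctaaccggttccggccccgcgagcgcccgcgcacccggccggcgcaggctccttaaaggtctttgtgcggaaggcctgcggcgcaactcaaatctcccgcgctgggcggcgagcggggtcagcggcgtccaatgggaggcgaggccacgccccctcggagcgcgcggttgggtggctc
Chek1, chr9:36726659-36726908, minus strand: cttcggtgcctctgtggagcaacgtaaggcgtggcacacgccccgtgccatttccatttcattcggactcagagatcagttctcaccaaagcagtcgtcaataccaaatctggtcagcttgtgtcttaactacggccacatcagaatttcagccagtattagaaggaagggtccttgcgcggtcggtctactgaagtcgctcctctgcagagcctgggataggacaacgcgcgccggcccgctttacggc
Mcm7, chr5:138171884-138172133, minus strand: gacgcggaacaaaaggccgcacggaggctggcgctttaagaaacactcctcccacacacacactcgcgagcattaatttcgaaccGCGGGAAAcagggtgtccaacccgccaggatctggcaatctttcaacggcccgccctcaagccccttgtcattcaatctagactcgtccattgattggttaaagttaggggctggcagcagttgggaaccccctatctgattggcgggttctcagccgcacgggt
Uhrf1, chr17:56303087-56303336, plus strand: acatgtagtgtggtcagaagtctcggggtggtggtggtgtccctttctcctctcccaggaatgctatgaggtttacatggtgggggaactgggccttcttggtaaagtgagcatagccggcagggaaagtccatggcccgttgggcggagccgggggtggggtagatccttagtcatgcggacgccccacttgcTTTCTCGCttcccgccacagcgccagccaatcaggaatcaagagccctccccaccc

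The 7 Treg markers averaged 10.45 to 10.83 on the log2 scale on all 16 arrays. The lists for B cells, plasma cells and CD8 T or NK cells averaged 3.572 to 4.697, and within the last of them Cd8b1, a CD8 chain, had group means of 6.597 to 7.366. Correlations within groups were 0.9801 to 0.9939. Replicate 3 of the rapamycin Atg7-/- group lay away from its other arrays on the second principal component (-29.83 against -12.88 to -7.567) and had the group's highest replication gene median. Fits without it are given beside some of the results that it changes, and for other counts in the closing section on processing. Atg7 read 6.66 ± 0.0598 and 6.38 ± 0.24 (SD, n = 4 each) in untreated Atg7+/- and Atg7-/- cells (limma adjusted p = 0.299). Under rapamycin it differed by -0.30 between the genotypes (limma adjusted p = 0.232). Where its probe set lies relative to the deleted part was not examined, so these values do not check the deletion. In these bulk samples more cells in S phase and more RNA per cell cannot be told apart.

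The first comparison asks how replication genes differed between Atg7-/- and Atg7+/- Treg cells of untreated mice. Of the 42 genes 6 rose in Atg7-/- cells and none fell, by a limma adjusted p under 0.05 over all 16760 genes. That is 14.3% of them, where 3.14% of all genes were called in either direction, 1.75% higher and 1.39% lower. Their median log2 difference was 0.19 against 0.02 for all genes tested, and 34 of 42 differences were positive against 9300 of 16760. For 15 of the 42, 35.7%, every Atg7-/- array exceeded every Atg7+/- array, which held for 8.17% of all genes, and for 1 gene every Atg7-/- array was lower, against 5.97%. The 6 were Chek1, Rrm2, Cdc45, Dut, Mcm10 and Dnmt1, and they belong to 4 roles: nucleotide supply, helicase activation, maintenance methylation and checkpoint.

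Chek1, the kinase of the S phase checkpoint, had the smallest p of the set. Its log2 signals in replicates 1 to 4 were 4.77, 4.63, 4.75 and 4.72 in untreated Atg7+/- cells and 5.44, 5.55, 5.36 and 5.89 in untreated Atg7-/- cells (probe set 17525503). All Atg7-/- arrays lay above all Atg7+/- arrays, with Atg7-/- replicate 4 the highest. The Atg7+/- mean of 4.715 was dim, near the array medians over all probe sets of 4.411 to 4.632. The log2 difference was 0.84 (SE 0.121, limma adjusted p = 0.000881), a 1.8-fold rise, and it stayed called under each of the 25 alternatives.

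Among the enzymes of nucleotide supply, Rrm2 and Dut rose. Rrm2, the small subunit of ribonucleotide reductase that limits its activity to S phase, read 5.36, 5.37, 4.99 and 5.37 in Atg7+/- cells and 5.74, 6.14, 6.50 and 6.59 in Atg7-/- cells. The Atg7+/- arrays sat close together except for replicate 3, which was lower, and the Atg7-/- arrays spread over a wider range with no overlap. The difference of 0.97 was the largest of the 42 (SE 0.233, limma adjusted p = 0.0285, 1.96-fold). A dimmer second Rrm2 probe set gave 0.48. Dut, the dUTPase that keeps uracil out of DNA, read 7.78, 7.70, 7.94 and 7.54 in Atg7+/- cells and 8.44, 8.26, 8.22 and 8.17 in Atg7-/- cells. Again no array overlapped, and the difference was 0.53 (SE 0.0993, limma adjusted p = 0.0061, 1.45-fold). A second Dut probe set near the filter value gave 0.11, and with the 2 averaged Dut was no longer called (adjusted p = 0.0674).

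The other 3 enzymes of precursor supply did not pass the test but lay on the same side. Rrm1, the large reductase subunit, differed by 0.38 (adjusted p = 0.0764), and Tyms, thymidylate synthase, by 0.40 (adjusted p = 0.0689). Tk1, thymidine kinase of the salvage route, differed by 0.21 (adjusted p = 0.539). In each of the 5 the Atg7-/- arrays lay above the Atg7+/- arrays, for Tk1 only barely. The 5-gene median per array, taken relative to the untreated Atg7+/- mean of each gene, was -0.04 to 0.08 in Atg7+/- cells and 0.33 to 0.45 in Atg7-/- cells.

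Helicase activation split by component. Cdc45, the subunit that completes the active helicase, read 4.88, 5.19, 5.19 and 5.15 in Atg7+/- cells and 5.52, 5.75, 5.98 and 5.56 in Atg7-/- cells. Atg7+/- replicate 1 was lower than its group, and no array overlapped (difference 0.59, SE 0.121, limma adjusted p = 0.0113, 1.51-fold). Mcm10, a scaffold that activates the helicase, read 4.52, 4.36, 4.42 and 4.48 in Atg7+/- and 4.73, 4.83, 4.80 and 4.92 in Atg7-/- cells, a tight separation of 0.37 (SE 0.0893, limma adjusted p = 0.0293, 1.29-fold). Mcm10 was dim in both groups, with means of 4.447 and 4.818 near the array medians. The GINS subunits did not move as a block: Gins2 differed by 0.34 with no overlap (adjusted p = 0.105), Gins1 by 0.20, Gins3 by -0.16 and Gins4 by -0.17. Gins4 was the 1 gene of the 42 whose Atg7-/- arrays all lay below the Atg7+/- arrays (adjusted p = 0.453).

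Dnmt1, the maintenance DNA methyltransferase, read 8.10, 7.98, 8.16 and 7.93 in Atg7+/- cells and 8.33, 8.36, 8.54 and 8.39 in Atg7-/- cells. The groups did not overlap, and the difference was 0.36 (SE 0.0791, limma adjusted p = 0.017, 1.29-fold). Uhrf1, which brings Dnmt1 to newly copied DNA, read 6.24, 6.13, 6.28 and 5.76 in Atg7+/- and 6.64, 6.48, 6.57 and 6.50 in Atg7-/- cells. It too showed no overlap, with a larger difference of 0.45 but a wider spread (SE 0.143, limma adjusted p = 0.0977).

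**Figure D1:**
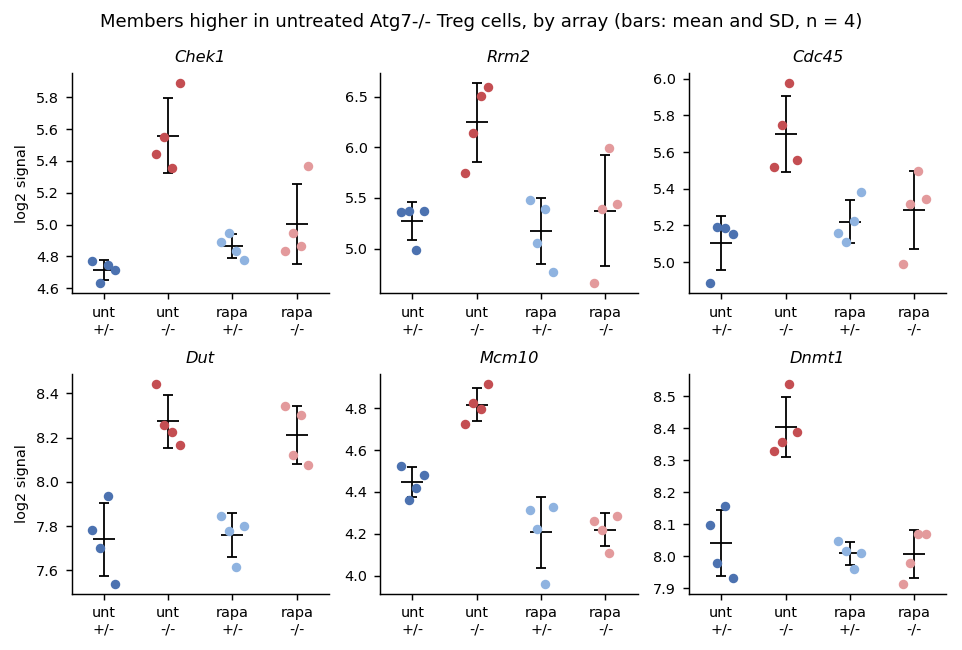
Log2 signal of the 6 replication genes higher in untreated Atg7-/- Treg cells, on every array of the 4 groups (unt, untreated; rapa, rapamycin; +/- and -/-, the Atg7 genotype); points are arrays, and bars the mean and SD of 4. In each panel the untreated Atg7-/- arrays lie above all untreated Atg7+/- arrays, and Dut is the gene whose rapamycin Atg7-/- arrays also lie above all rapamycin Atg7+/- arrays.

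Helicase loading, polymerases with primase, and the clamp group held no called gene, and Chek1 was the only call of S phase entry and checkpoint. The 10 helicase loading genes, among them the Mcm2 to Mcm7 ring, differed by -0.13 (Mcm4) to 0.28 (Cdc6), with adjusted p from 0.284 upward. Of the 8 polymerase and primase genes, Prim1, the catalytic primase subunit, differed by 0.43 (adjusted p = 0.0597), Pola1 by 0.38 (adjusted p = 0.128) and Pole by 0.36 (adjusted p = 0.0954), all without overlap. A dimmer second Pole probe set gave -0.28. Pcna, the sliding clamp, read 10.37 to 10.63 on all 16 arrays and differed by -0.07. Fen1, the flap nuclease of Okazaki fragments, differed by 0.36 without overlap (adjusted p = 0.0593), and the clamp loader subunits by -0.07 to 0.09. Ccne1, E2f1 and E2f2 differed by 0.27, 0.14 and 0.05, none of them called.

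Some of these calls changed when 1 array was left out. Without untreated Atg7+/- replicate 2 or 4, or without untreated Atg7-/- replicate 3, 3 of the 42 genes were called instead of 6. Mcm10 and Rrm2 each lost their call without any 1 untreated Atg7+/- array or without Atg7-/- replicate 2, 3 or 4 (limma adjusted p as high as 0.0858 and 0.0935). Dnmt1 lost it without Atg7+/- replicate 2 or 4 or Atg7-/- replicate 3 (up to 0.0627) and after median centring of the arrays (0.0588). Marker lists of other cells moved with the same comparison. The 5 measured conventional T cell markers averaged 7.153 to 7.28 in untreated Atg7+/- and 7.411 to 7.566 in untreated Atg7-/- cells, with 1 of 5 called higher. The called gene was Themis (1.36, limma adjusted p = 0.000706), and Cd40lg (0.50) and Dapl1 (0.06) were higher without a call. Lef1 (-0.12) and Il7r (-0.35) were lower, also without a call. The 4 neutrophil markers averaged 4.326 to 5.027 and 5.043 to 5.219, with none called. Of 5 dendritic cell markers, which averaged 4.836 to 5.012 and 4.963 to 5.101, Zbtb46 was lower (-0.41, limma adjusted p = 0.0189). Their part in the result was not tested. The Treg list overlapped (10.7 to 10.81 and 10.66 to 10.83), while Foxp3 itself was 1.32-fold lower (10.86 ± 0.222 against 11.26 ± 0.0376, SD, n = 4 each, limma adjusted p = 0.0355). Foxp3 lost that call without any untreated array other than Atg7-/- replicate 2 (up to 0.091).

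Genes of the surrounding pathways, from lists chosen by function with earlier results of these data known, were called as follows in the same comparison. Of 14 origin licensing and firing genes 2 rose, the firing factor Ticrr (0.50, adjusted p = 0.0447) and the origin subunit Orc2 (0.32, adjusted p = 0.0433), with a list median of 0.05. Of 18 replisome genes 3 rose: Tipin, a fork protection factor (0.75), Dna2, a flap nuclease (0.68), and Wdhd1, which links helicase and polymerase alpha (0.58). Their list median was 0.12. Of 24 further nucleotide supply genes 3 rose, Dctd (0.55), Ctps (0.44) and Dtymk (0.34), with a list median of 0.21. Of 26 G1 to S regulators 3 rose: the atypical repressor E2f8 (0.84), the cyclin D kinase Cdk6 (0.48) and the E2f partner Tfdp1 (0.48), with a list median of 0.09. Of 11 chromatin assembly genes 1 rose, the histone chaperone subunit Chaf1a (0.72), and of 20 checkpoint and repair genes 1 rose, the kinase Wee1 (0.78). No gene of these 6 lists fell. Shares called ran from 5% of checkpoint and repair genes to 16.7% of replisome genes, against 3.14% of all genes. The calls of Ticrr and Orc2 were each lost under 14 of 25 alternatives (adjusted p up to 0.139 and 0.119), among them leaving out untreated Atg7+/- replicate 2, 3 or 4. Chaf1a lost its call without untreated Atg7+/- replicate 1 or 4 or Atg7-/- replicate 1, 2 or 3 (with adjusted p up to 0.0968 over all alternatives), Ctps and Dtymk without Atg7+/- replicate 4 or Atg7-/- replicate 4, among others (up to 0.0587 and 0.0676), and Dctd without Atg7+/- replicate 4 (0.0541).

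Mitosis genes gave a higher share in the same arrays. Of 21 tested 11 rose and none fell, with a median of 0.63, led by the kinetochore gene Nuf2 (1.71), the proliferation antigen Mki67 (1.45) and the spindle kinesin Kif11 (1.27). The median of the 42 replication genes was 0.19, and the difference between the lists was not tested. Myc, a regulator of cell growth, differed by -0.09 (adjusted p = 0.689).

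**Figure D2:**
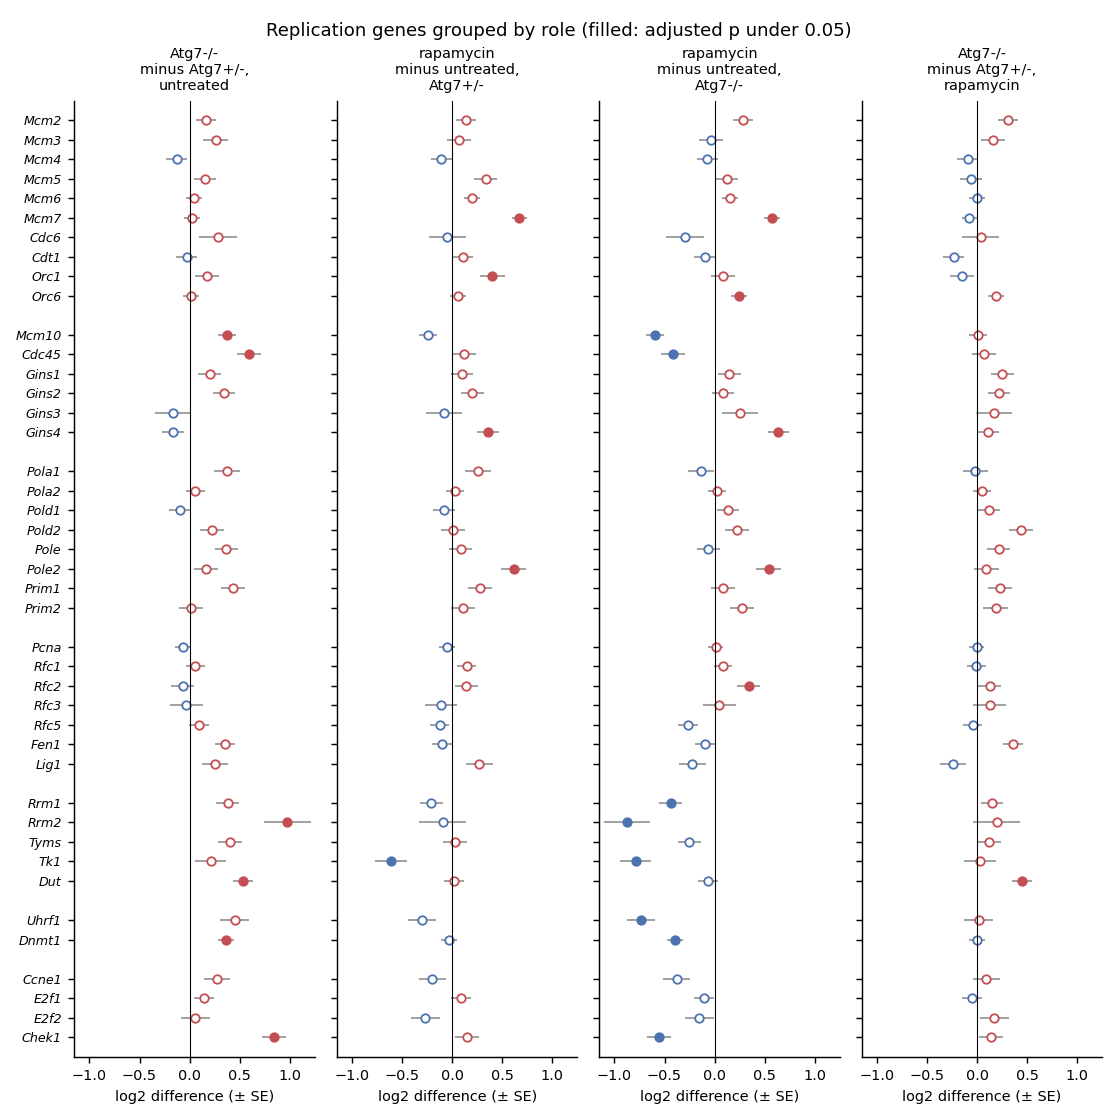
Log2 differences (points) with standard errors (lines) of the 42 replication genes in 4 comparisons, from top to bottom in blocks for helicase loading, helicase activation, polymerases and primase, clamp and strand joining, nucleotide supply, maintenance methylation, and S phase entry with the checkpoint. Filled points have a limma adjusted p under 0.05; red points are above 0 and blue points below, and the nucleotide supply block lies wholly above 0 in untreated Atg7-/- cells and wholly below 0 for rapamycin in Atg7-/- cells.

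The second comparison asks what rapamycin did in Atg7+/- Treg cells. Of the 42 genes 4 rose (Mcm7, Pole2, Orc1 and Gins4) and 1 fell (Tk1), where 14.1% of all genes were called, 6.03% higher and 8.11% lower. The members' shares of 9.52% higher and 2.38% lower are near those of all genes, so the counts are not a result about replication genes as a set. Arrays did not overlap for 6 genes higher and 2 lower, 14.3% and 4.76%, against 9.64% and 13.1% of all genes. The median difference was 0.06 against -0.03 for all genes, with values from -0.61 to 0.67.

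Mcm7, a subunit of the helicase ring, read 6.49, 6.42, 6.56 and 6.45 in untreated and 7.12, 7.18, 7.23 and 7.07 in rapamycin Atg7+/- cells. The treated arrays formed a separate cluster above the untreated ones, a 1.59-fold rise (0.67, SE 0.0772, limma adjusted p = 4.71e-05). The other ring subunits did not pass the test: Mcm5 came nearest at 0.33 without overlap (adjusted p = 0.0544), Mcm6 differed by 0.20, Mcm2 by 0.14, Mcm3 by 0.07 and Mcm4 by -0.11. Orc1, the ATPase of the origin recognition complex, read 5.12, 4.87, 4.88 and 5.12 untreated and 5.44, 5.43, 5.28 and 5.44 with rapamycin. The groups did not overlap, and treated replicate 3 was the lowest of its group (0.40, SE 0.12, limma adjusted p = 0.0327, 1.32-fold).

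Pole2, an accessory subunit of polymerase epsilon, read 5.06, 4.95, 5.43 and 4.87 untreated and 5.65, 5.85, 5.63 and 5.65 with rapamycin. Every treated array was higher, with replicate 2 above the other 3, and the rise was 1.53-fold (0.61, SE 0.124, limma adjusted p = 0.00389). Gins4 read 8.44, 8.39, 8.38 and 8.49 untreated and 8.72, 8.72, 8.84 and 8.87 with rapamycin, without overlap (0.36, SE 0.108, limma adjusted p = 0.0337, 1.28-fold). Tk1 went the other way, from 7.57, 7.98, 7.93 and 7.93 to 7.36, 7.54, 7.11 and 6.97. All treated arrays were below all untreated ones, of which replicate 1 was the lowest, and Tk1 fell by 0.61 (SE 0.158, limma adjusted p = 0.0156, 1.53-fold lower).

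The genes that separated the untreated genotypes showed no called change here. Chek1 read 4.89, 4.95, 4.84 and 4.78 in treated Atg7+/- cells, each array slightly above the untreated ones (0.15, adjusted p = 0.455). Rrm2 differed by -0.09, Dnmt1 by -0.03, Dut by 0.02 and Cdc45 by 0.12. Mcm10 differed by -0.24 with all treated arrays lower (adjusted p = 0.0823) and Uhrf1 by -0.30 (adjusted p = 0.17).

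Gins4 lost its call without any 1 of the 8 arrays compared (adjusted p up to 0.0845) and after median centring of the arrays (0.119). Orc1 lost it without untreated Atg7+/- replicate 2 or 3 or treated replicate 1, 2 or 4 (up to 0.0923), so that 2 genes were called higher in those fits, and after quantile normalization (0.0646), and Tk1 lost it without treated replicate 4 (0.0515), which left none lower. The Treg marker list averaged 10.7 to 10.81 untreated and 10.61 to 10.67 with rapamycin, with 1 of 7 genes called higher and 2 lower, and the conventional T cell list 7.153 to 7.28 and 7.009 to 7.179, with 1 of 5 higher and 1 lower. Of 5 dendritic cell markers Xcr1 was lower (-1.10, limma adjusted p = 0.000251) and Flt3 higher (0.55, adjusted p = 0.0142), and of 4 B cell markers Pax5 was lower (-0.30, adjusted p = 0.0391). Their part in the result was not tested.

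Among the pathway lists, 3 of 14 origin genes rose and 1 fell: Donson, a firing factor, by 0.52, Orc5 by 0.48, and the firing kinase Cdc7 by -0.66. Of 18 replisome genes 3 rose (Rpa3 0.78, Rnaseh2a 0.60 and Pole4 0.46) and 1 fell. Of 24 nucleotide supply genes 1 rose, Dctd (0.53), and 3 fell, with Atic of purine synthesis at -0.62 and Dck of deoxynucleoside salvage at -0.59. Of 26 G1 to S regulators 4 rose and 3 fell, with Tfdp2 at 1.15, the phosphatase Cdc25a at -0.97 and E2f3 at -0.71. Of 11 chromatin assembly genes the histone chaperone Asf1a rose (0.62). Of 20 checkpoint genes 3 rose, the kinases Atm (0.63), Atr (0.59) and Wee1 (0.36), and 1 fell. Of 21 mitosis genes 1 rose, Ndc80 (0.87), and 1 fell, Birc5 (-0.67). Shares called ran from 9.09% to 28.6% over these lists, against 14.1% of all genes. Those of nucleotide supply (16.7%), chromatin assembly (9.09%) and mitosis (9.52%) were near or below that of all genes. No list was tested as a set. Dck lost its call without untreated replicate 1 or 3 or treated replicate 1 or 2 (adjusted p up to 0.085), and Ndc80 without untreated replicate 1, 2 or 4 or treated replicate 1, 3 or 4 (up to 0.0957). Wee1 lost its call after quantile normalization (0.0968) and median centring (0.0763).

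The third comparison asks what rapamycin did in Atg7-/- Treg cells. Of the 42 genes 5 rose (Gins4, Mcm7, Pole2, Rfc2 and Orc6) and 8 fell (Rrm2, Tk1, Uhrf1, Mcm10, Chek1, Rrm1, Cdc45 and Dnmt1). Of all genes 20% were called, 8.83% higher and 11.1% lower, against 11.9% and 19% of the 42. Arrays did not overlap for 6 genes higher and 7 lower, 14.3% and 16.7%, against 8.76% and 11.6% of all genes. The median difference was -0.05 against -0.04 for all genes, so the set as a whole was centred where all genes were, with 20 values above 0 and 22 below. This comparison shares the untreated Atg7-/- arrays with the first, so the falls below and the rises above are not independent of each other.

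The genes that rose included helicase and polymerase subunits. Mcm7 read 6.64, 6.55, 6.44 and 6.39 untreated and 7.02, 7.11, 7.04 and 7.12 with rapamycin (0.57, SE 0.0772, limma adjusted p = 9.66e-05, 1.48-fold), again without overlap. Gins4 read 8.26, 8.29, 8.14 and 8.33 untreated and 8.72, 8.70, 9.29 and 8.86 with rapamycin, with replicate 3 above the other treated arrays (0.64, SE 0.108, limma adjusted p = 0.000671, 1.55-fold). Pole2 read 5.05, 5.33, 5.19 and 5.39 untreated and 5.53, 5.72, 6.00 and 5.87 with rapamycin (0.54, SE 0.124, limma adjusted p = 0.00544, 1.45-fold). The treated arrays of each of these genes lay above all untreated ones. Orc6 rose by 0.24 without overlap and Rfc2, a clamp loader subunit, by 0.34 with overlapping arrays (limma adjusted p = 0.0437 and 0.045).

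**Figure D3:**
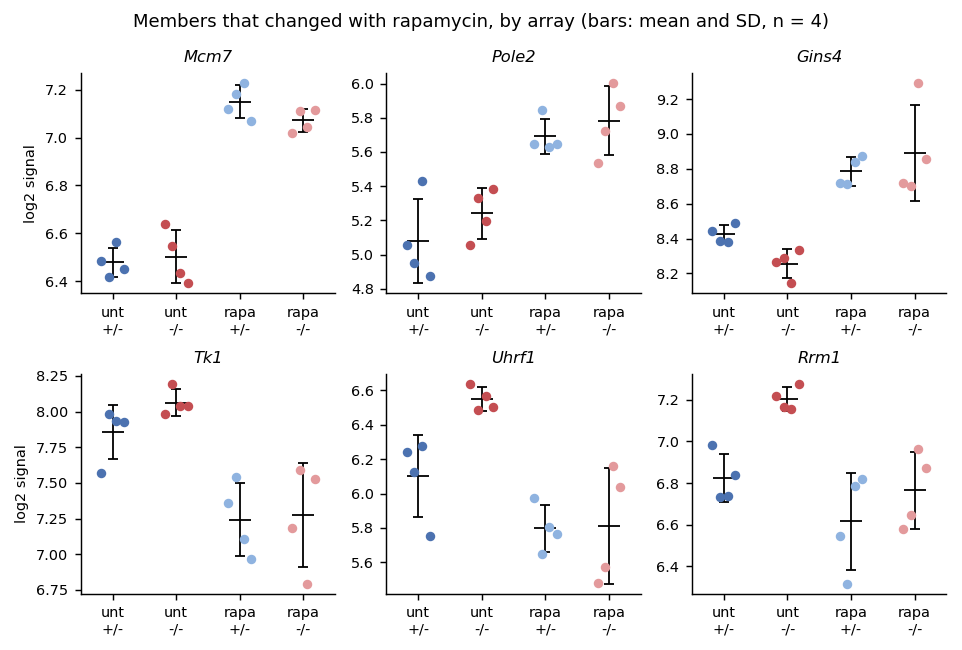
Log2 signal of 6 replication genes that changed with rapamycin in at least 1 genotype, on every array (unt, untreated; rapa, rapamycin; +/- and -/-, the Atg7 genotype); points are arrays, and bars the mean and SD of 4. Rapamycin arrays of Mcm7, Pole2 and Gins4 lie above, and those of Tk1 below, all untreated arrays of the same genotype, whereas untreated Atg7-/- arrays are the highest group for Uhrf1 and Rrm1.

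Of the 5 nucleotide supply enzymes, 3 fell. Rrm2 read 5.74, 6.14, 6.50 and 6.59 untreated and 4.66, 5.40, 5.99 and 5.44 with rapamycin. The groups overlapped through treated replicate 3, and Rrm2 fell by 0.87 (SE 0.233, limma adjusted p = 0.0137, 1.83-fold lower), while its second probe set fell by 0.60. Tk1 read 7.98, 8.20, 8.04 and 8.04 untreated and 7.19, 7.59, 6.79 and 7.53 with rapamycin, lower on every treated array (-0.79, SE 0.158, limma adjusted p = 0.00214, 1.73-fold lower). Rrm1 read 7.22, 7.17, 7.16 and 7.28 untreated and 6.58, 6.65, 6.96 and 6.87 with rapamycin, also without overlap (-0.44, SE 0.113, limma adjusted p = 0.0112, 1.36-fold lower). Tyms differed by -0.25 (adjusted p = 0.134) and Dut by -0.06 (adjusted p = 0.699), and Dut read 8.34, 8.12, 8.30 and 8.08 with rapamycin, within the range of the untreated Atg7-/- arrays apart from its 2 lowest values.

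Both maintenance methylation genes fell. Uhrf1 read 6.64, 6.48, 6.57 and 6.50 untreated and 5.48, 5.57, 6.16 and 6.04 with rapamycin, where replicates 3 and 4 were nearest the untreated level (-0.74, SE 0.143, limma adjusted p = 0.00179, 1.67-fold lower). Dnmt1 read 8.33, 8.36, 8.54 and 8.39 untreated and 7.91, 7.98, 8.07 and 8.07 with rapamycin, a tight separation (-0.40, SE 0.0791, limma adjusted p = 0.00214). Neither overlapped between the groups.

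Of the activation and checkpoint genes, Mcm10 read 4.73, 4.83, 4.80 and 4.92 untreated and 4.26, 4.22, 4.11 and 4.29 with rapamycin. It had the smallest p among the genes that fell (-0.60, SE 0.0893, limma adjusted p = 0.000227, 1.51-fold lower), at signals near the array medians. Chek1 read 5.44, 5.55, 5.36 and 5.89 untreated and 4.83, 4.95, 4.87 and 5.37 with rapamycin, and the groups met at treated replicate 4 (-0.56, SE 0.121, limma adjusted p = 0.00388, 1.47-fold lower). Cdc45 fell by 0.41 without overlap (limma adjusted p = 0.0226). Ccne1, cyclin E1, missed the threshold at -0.38 with no overlap (adjusted p = 0.0502).

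Rfc2 and Orc6 each lost their call without any of 11 of the 16 arrays, whichever group they came from (adjusted p up to 0.139 and 0.119), and 3 genes were called higher in the fits without untreated Atg7+/- replicate 1 or 2, untreated Atg7-/- replicate 1, 3 or 4, treated Atg7+/- replicate 2 or 4, or treated Atg7-/- replicate 3 or 4. Cdc45 lost its call without untreated Atg7-/- replicate 2 or 3 or treated Atg7-/- replicate 1 (up to 0.0775), after median centring (0.0553) and in a fit of only the groups compared (0.0648), whereas the other 7 falls stayed called under each of the 25 alternatives. The Treg list averaged 10.66 to 10.83 untreated and 10.45 to 10.63 with rapamycin, with 1 of 7 genes called higher and 3 lower. The conventional T cell list (7.411 to 7.566 and 7.092 to 7.819, with 2 of 5 higher and 2 lower) and the neutrophil list (5.043 to 5.219 and 4.332 to 5.619, with 1 of 4 lower) overlapped between the groups. Of 5 dendritic cell markers Xcr1 was lower (-1.10, limma adjusted p = 0.000146), and of 4 B cell markers Pax5 (-0.52, adjusted p = 0.000871). Their part in the result was not tested.

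**Figure D4:**
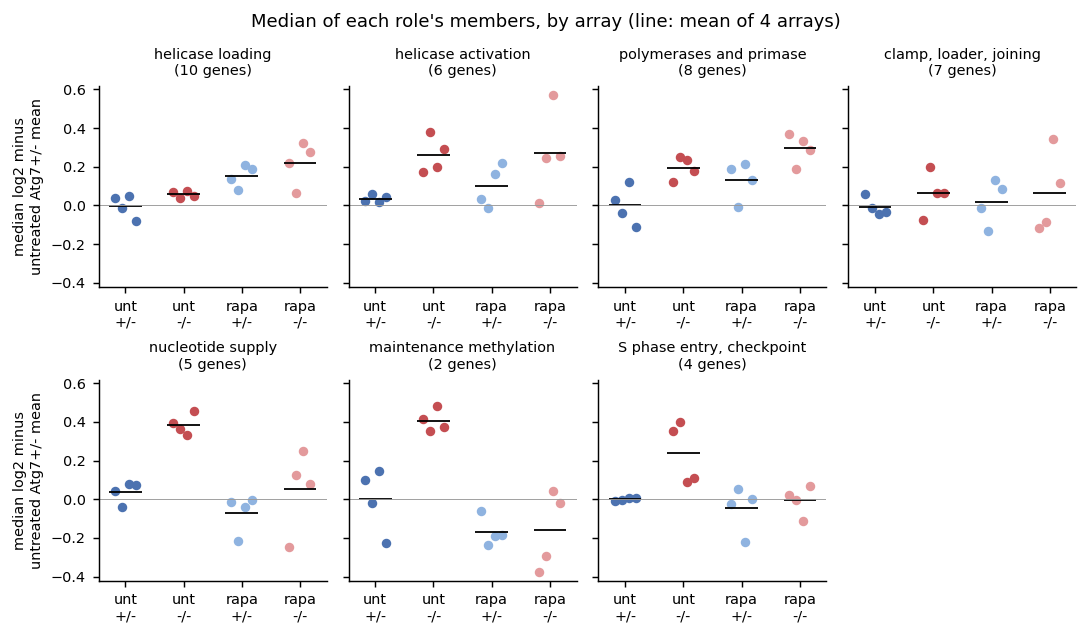
Median, per array, of the replication genes of each role, as log2 signal minus each gene's untreated Atg7+/- mean; points are arrays (unt, untreated; rapa, rapamycin; +/- and -/-, the Atg7 genotype) and lines the means of 4. Untreated Atg7-/- arrays lie at 0.33 to 0.45 for nucleotide supply and at 0.35 to 0.48 for maintenance methylation, above all other arrays, while helicase loading lies at 0.04 to 0.07 there and at 0.06 to 0.32 in rapamycin Atg7-/- cells.

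In the pathway lists, 3 of 14 origin genes rose (Orc5 by 0.56 and Donson by 0.52 the largest) and 1 fell, Cdc7 (-0.45). Of 18 replisome genes 3 rose (Rpa3 0.84, Rnaseh2a 0.61 and Pole4 0.41) and 2 fell. Of 24 nucleotide supply genes 2 rose, the alternative reductase subunit Rrm2b (0.52) and Ctps2 (0.43), and 4 fell, with Atic at -0.66. Of 26 G1 to S regulators 3 rose and 6 fell: Tfdp2 differed by 1.28, E2f8 by -0.90 and Cdc25a by -0.87. Of 11 chromatin assembly genes Asf1a rose (0.82) and 3 fell, among them Chaf1a (-0.52) and Asf1b (-0.48). Of 20 checkpoint genes Atr rose (0.79) and Chek2 fell (-0.48, adjusted p = 0.0498). Of 21 mitosis genes 13 fell and none rose, with a median of -0.42, led by Birc5 (-1.43), Mki67 (-1.24) and Nuf2 (-1.07). Shares called ran from 10% of checkpoint genes to 61.9% of mitosis genes, against 20% of all genes. That of nucleotide supply was 25%, near that of all genes. Chek2 and Chaf1a lost their calls under 16 and 13 of 25 alternatives (adjusted p up to 0.161 and 0.134), each of them without untreated Atg7-/- replicate 2 or 3, Ctps2 without untreated Atg7-/- replicate 1 (0.0671), and Rrm2b under 1 alternative (0.0504).

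The rapamycin differences of the 2 genotypes rest on separate arrays and can be set side by side. Across the 42 genes they had the same sign in 28, with a Pearson correlation of 0.681 and a Spearman correlation of 0.57 across genes, which are not independent replicates. Over all genes tested the Pearson correlation was 0.746 and 75.3% shared their sign. Several genes lay far from equal differences, given here side by side. Rrm2 had -0.09 in Atg7+/- and -0.87 in Atg7-/- cells, Chek1 0.15 and -0.56, Cdc45 0.12 and -0.41, and Dnmt1 -0.03 and -0.40.

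**Figure D5:**
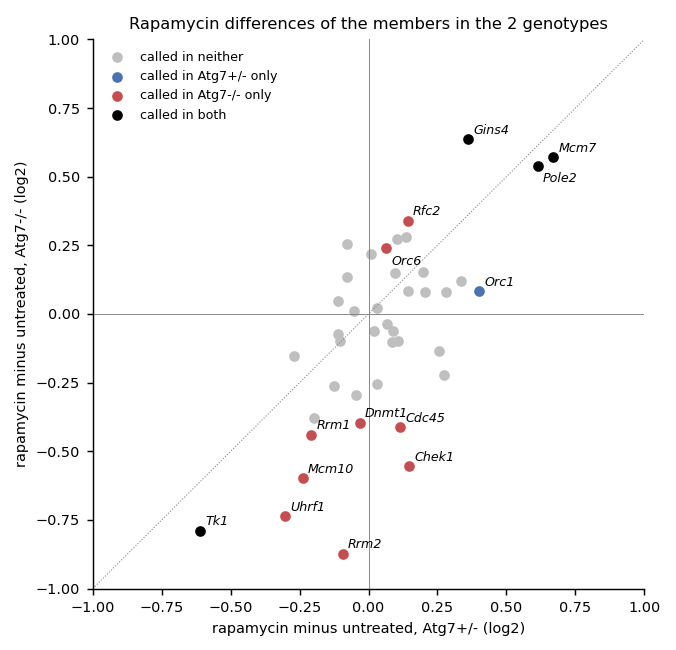
Rapamycin minus untreated log2 differences of the 42 replication genes, in Atg7+/- cells (horizontal) and Atg7-/- cells (vertical), each from 8 arrays; the dotted line marks equal differences. Mcm7, Pole2 and Gins4 lie in the upper right and Tk1 in the lower left, called in both genotypes, while Rrm2, Chek1, Cdc45 and Dnmt1 lie near 0 on the horizontal axis and below 0 on the vertical one.

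The difference between the 2 rapamycin effects was tested directly. None of the 42 genes was called in limma, as 0% of all 16760 genes were, with the smallest adjusted p at 0.349 for Chek1. At an unadjusted p under 0.05, 8 of the 42 had a more negative effect in Atg7-/- cells and none a more positive one, 19% against 6.28% of all genes in either direction. They were Rrm2 (-0.78, SE 0.33), Chek1 (-0.70, SE 0.171), Cdc45 (-0.53, SE 0.171), Lig1 (-0.49, SE 0.185), Uhrf1 (-0.43, SE 0.202), Pola1 (-0.39, SE 0.183), Dnmt1 (-0.36, SE 0.112) and Mcm10 (-0.36, SE 0.126). The median over the 42 was -0.11 against 0.0029 for all genes. The falls seen in Atg7-/- and not in Atg7+/- cells are not shown to differ between the genotypes.

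The fourth comparison asks whether the genotypes differed when both had received rapamycin. Of the 42 genes Dut rose in Atg7-/- cells, and no other was called, a share of 2.38% against 3.24% of all genes (1.91% higher and 1.33% lower), near the background. The median difference was 0.10 against 0.02 for all genes. Dut read 7.85, 7.78, 7.62 and 7.80 in treated Atg7+/- cells and 8.34, 8.12, 8.30 and 8.08 in treated Atg7-/- cells, again with no overlap (0.45, SE 0.0993, limma adjusted p = 0.0212, 1.37-fold). It was the 1 gene of the 42 whose arrays did not overlap here, where 6.01% of all genes did so higher and 3.76% lower, and its difference of 0.53 without rapamycin came from separate arrays. Fen1 differed by 0.36 (adjusted p = 0.0542) and Pold2, a subunit of polymerase delta, by 0.43 (adjusted p = 0.0551), with Pold2 read as 7.95, 7.80, 8.20 and 7.97 in Atg7+/- and 8.57, 7.999, 8.59 and 8.51 in Atg7-/- cells. In treated Atg7-/- cells replicate 2 of Pold2 was well below the other 3.

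For the genes separated in untreated cells the values under rapamycin were as follows. Chek1 differed by 0.14, Rrm2 by 0.19, Cdc45 by 0.07, Mcm10 by 0.01 and Dnmt1 by -0.00064, with adjusted p from 0.602 to 0.998. Dut lost its call without treated Atg7+/- replicate 2 or treated Atg7-/- replicate 3 (adjusted p up to 0.0755), with its 2 probe sets averaged (0.245) and in a fit of only the groups compared (0.0844). Of 5 CD8 T or NK cell markers Cd8b1 was higher in treated Atg7-/- cells without overlap (0.72, limma adjusted p = 0.0198), and of 5 conventional T cell markers Cd40lg with overlap (0.59, adjusted p = 0.0301). Their lists averaged 4.275 to 4.428 and 7.009 to 7.179 in treated Atg7+/- cells and 4.251 to 4.484 and 7.092 to 7.819 in treated Atg7-/- cells. Of 7 Treg markers none was called. Without overlap, 3 were lower in treated Atg7-/- cells, Foxp3 (-0.35, limma adjusted p = 0.0662), Ctla4 (-0.26) and Tnfrsf18 (-0.20), and 1 higher, Cd3e (0.31). Those shares were 42.9% and 14.3%, against 3.76% and 6.01% of all genes. The part of these markers in the result was not tested. Without treated Atg7-/- replicate 3 the median of the 42 was 0.02, and without treated Atg7-/- replicate 2 the count was 3.

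Among the lists, 5 of 24 nucleotide supply genes rose and none fell, with Dctpp1, a dCTP-degrading enzyme, at 0.53, and the folate enzymes Mthfd1 at 0.45 and Shmt1 at 0.39. Of 18 replisome genes Rnaseh2b rose (0.47), of 26 G1 to S regulators Cdc25a rose (0.43) and Rb1 fell (-0.35), and of 20 checkpoint genes Wee1 rose (0.38). No origin gene, chromatin assembly gene or mitosis gene of the lists was called, with Donson (-0.37, adjusted p = 0.0647), Chaf1a (0.43, adjusted p = 0.193) and Ccna2 (0.50, adjusted p = 0.0952) having the smallest p of each. Shares called were 20.8% of nucleotide supply genes, 7.69% of G1 to S regulators, 5.56% of replisome and 5% of checkpoint genes, against 3.24% of all genes. The 7 named calls were each lost without treated Atg7+/- replicate 1 or 2 or treated Atg7-/- replicate 3, and over all alternatives their adjusted p reached 0.316 for Rb1 and 0.161 for Cdc25a.

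Set against untreated Atg7+/- cells, treated Atg7-/- cells differed in both factors. Of the 42 genes 10 rose and 1 fell, where 17.6% of all genes were called, 9.02% higher and 8.56% lower, against 23.8% and 2.38% of the 42. Arrays did not overlap for 9 genes higher and 1 lower, against 10.2% and 10.8% of all genes, and the median was 0.16 against -0.02. Pole2 rose by 0.70 (SE 0.124, limma adjusted p = 0.000953) and Mcm7 by 0.59 (adjusted p = 7.55e-05), followed by Prim1 (0.51), Dut (0.47), Gins4 (0.47), Mcm2 (0.44), Pold2 (0.44), Gins2 (0.42), Gins1 (0.35) and Orc6 (0.25). Gins1 lay near the filter value of 3.549, with means of 3.522 in untreated Atg7+/- and 3.869 in treated Atg7-/- cells. Tk1 fell by 0.58 (adjusted p = 0.0165). Mcm2, a ring subunit called in none of the other comparisons, read 7.04, 7.14, 7.07 and 6.71 in untreated Atg7+/- and 7.49, 7.23, 7.53 and 7.48 in treated Atg7-/- cells, where replicate 2 was the lowest and still above all untreated arrays. Gins1 lost its call under 13 and Orc6 under 8 of the alternatives (adjusted p up to 0.145 and 0.115), each without untreated Atg7+/- replicate 1 or 3 or treated Atg7-/- replicate 1, 3 or 4, and Dut with its probe sets averaged (0.0774). Of the marker lists, 2 of 7 Treg genes were lower (Cd4 and Ctla4), 1 of 5 dendritic cell genes was higher (Flt3) and 2 lower (Zbtb46 and Xcr1), 1 of 4 B cell genes was lower (Pax5) and 1 of 5 conventional T cell genes higher (Il7r, 0.62). Their part in the result was not tested.

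The pathway lists gave 7 of 18 replisome genes higher and 1 lower in this last comparison, and 8 of 24 nucleotide supply genes higher and 2 lower. Rpa3, the smallest subunit of the single-strand binding complex, rose by 1.23 (limma adjusted p = 1.45e-05), Tipin by 0.83 and Rnaseh2b by 0.69. Dctd rose by 0.89 and Dtymk, which makes dTDP, by 0.52, while Dck fell by 0.82. Of 14 origin genes 3 rose and 1 fell, with Orc5 at 0.59, Orc2 at 0.43 and Cdc7 at -0.51. Of 26 G1 to S regulators 3 rose and 4 fell, with Tfdp2 at 1.00, Cdk6 at 0.85 and the kinase inhibitor Cdkn1a at -0.90. Of 11 chromatin assembly genes Asf1a rose (0.78), and of 20 checkpoint genes 5 rose and none fell, with Wee1 at 0.73, Atr at 0.70 and Mms22l at 0.60. Shares called ran from 9.09% of chromatin assembly genes to 44.4% of replisome genes, against 17.6% of all genes. Of 21 mitosis genes Nuf2 rose (0.64) and Birc5 fell (-0.43), with adjusted p up to 0.102 and 0.0842 over the alternatives, Nuf2 losing its call without untreated Atg7+/- replicate 2, 3 or 4 or treated Atg7-/- replicate 2, 3 or 4 and Birc5 without untreated Atg7+/- replicate 2 or 4 or treated Atg7-/- replicate 1 or 2.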

How the data were processed

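RNA of sorted Treg cells was hybridised to 16 arrays in 4 groups of 4. Each deposited number is the log2 signal of 1 probe set on 1 array. The submitters' processing notes name RMA and Partek 6.6 with no settings, and the log base, taken as 2, is not in the file. The build and version behind the probe annotation were not given in the sources used here. All value columns were mapped to samples. Probe sets were named through GEO's platform annotation: of 41345, 23521 had 1 symbol and 1814 several. A gene took its brightest probe set, and 16760 of 22180 genes with a group mean over 3.549, the 30th percentile of all values, were tested.

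The authors' log2 values were fitted in limma 3.58.1 under R 4.3.3 (lmFit, eBayes) with 1 mean per group over all 16 arrays. Tests were two-sided. Benjamini-Hochberg adjustment ran over all 16760 genes, with calls made under 0.05. Standard errors are those of the moderated fit (12 residual and 5.64 prior degrees of freedom). The scripts were tested on simulated data. Arrays have no read depth, so their number limits the precision.

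Genes given in full are the called replication genes, up to 6 per direction and comparison with the largest difference, and of each pathway list up to 3 called genes, or 1 with the smallest p, beside Atg7, Foxp3, Mki67 and Myc. Members, lists and rules were chosen with earlier results of these data known. Comparisons that share a group of arrays are not independent. Over all arrays the macrophage list averaged 4.395 to 5.187 on the log2 scale, with no gene called in any comparison, the dendritic cell list averaged 4.513 to 5.101, and the erythroid list had none of 4 genes on a single-symbol probe set. Alternatives were quantile normalization, median centring, other filters, averaged probe sets, array weights, trend and robust options, a replicate block, fits of only the groups compared, and leaving out each array. Promoter sequences are RefSeq's, of GRCm38.p6.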

Additional observations from a re-analysis of the deposited data

Results flagged for a closer look

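Single arrays were compared with the other 3 of their group for the 64 genes named in full or always named, 256 groups in all. An array is given here where its gap to the nearest other array took up more of the group's whole range than Dixon's critical value for 4 samples allows, a limit that chance passes in about 1 of 20 groups; the shares below are that gap over the range. There were 19 such arrays. Of the replication genes themselves, 8 had one. For Cdc45, untreated Atg7+/- replicate 1 read 4.88, the lowest of its group, against 5.15 for the nearest other array (share 0.877). Mcm2 read 7.23 in rapamycin Atg7-/- replicate 2, below the others, the nearest at 7.48 (share 0.847). In rapamycin Atg7+/- replicate 3, Orc1 was the lowest at 5.28, with 5.43 next to it (share 0.898). For Pold2, rapamycin Atg7-/- replicate 2 read 7.999, the lowest of its group, against 8.51 for the nearest other array (share 0.875). Pole2 read 5.85 in rapamycin Atg7+/- replicate 2, above the others, the nearest at 5.65 (share 0.91). In untreated Atg7-/- replicate 3, Prim1 was the highest at 6.59, with 6.49 next to it (share 0.837). For Rrm2, untreated Atg7+/- replicate 3 read 4.99, the lowest of its group, against 5.36 for the nearest other array (share 0.984). Tk1 read 7.57 in untreated Atg7+/- replicate 1, below the others, the nearest at 7.93 (share 0.866).

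The other 11 were in pathway genes and in Foxp3 and Myc. For Asf1a, rapamycin Atg7-/- replicate 3 read 9.36, the highest of its group, against 9.20 for the nearest other array (share 0.83). Asf1b read 6.23 in untreated Atg7+/- replicate 4, above the others, the nearest at 6.09 (share 0.902). In rapamycin Atg7+/- replicate 1, Cdk6 was the highest at 9.26, with 8.92 next to it (share 0.876). For Dna2, untreated Atg7-/- replicate 1 read 4.76, the lowest of its group, against 4.97 for the nearest other array (share 0.924). Dna2 read 4.29 in rapamycin Atg7-/- replicate 1, below the others, the nearest at 4.72 (share 0.836). In untreated Atg7+/- replicate 2, Foxp3 was the highest at 11.32, with 11.24 next to it (share 0.966). For Kif11, untreated Atg7+/- replicate 1 read 5.39, the highest of its group, against 5.10 for the nearest other array (share 0.875). Myc read 10.75 in untreated Atg7-/- replicate 4, below the others, the nearest at 11.08 (share 0.883). In untreated Atg7+/- replicate 4, Rnaseh2b was the lowest at 5.80, with 6.23 next to it (share 0.898). For Rnaseh2b, rapamycin Atg7-/- replicate 3 read 7.08, the highest of its group, against 6.74 for the nearest other array (share 0.995). Ticrr read 4.09 in rapamycin Atg7-/- replicate 1, below the others, the nearest at 4.58 (share 0.862). For no gene did the rapamycin effects of the genotypes pass a test of their difference, with 0 of 16760 called in limma and 1052 at an unadjusted p under 0.05.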

How the results depend on the processing

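Each comparison was refitted under 25 alternatives, 1 choice at a time. None of the counts, medians or named genes changed direction. With array weights 12 replication genes were called higher in untreated Atg7-/- cells, against 6, and leaving out 1 array gave 3 to 8. For rapamycin in Atg7+/- cells leaving out 1 array gave 2 to 5 higher (4 with all arrays) and 0 to 1 lower, and quantile normalization and median centring each gave 2 lower, against 1. For rapamycin in Atg7-/- cells quantile normalization, median centring, no filter on dim genes and a fit of only the groups compared each gave 3 higher, against 5, and leaving out 1 array gave 3 to 7 higher and 7 to 9 lower (8 with all arrays). Between genotypes under rapamycin, where 1 was called higher, quantile normalization and a filter at the 50th percentile gave 3, the trend and robust options 2, averaged probe sets and a fit of only the groups compared 0, and leaving out 1 array 0 to 3. The median difference there was 0.10, and it was 0.18 after quantile normalization and 0.02 to 0.18 with 1 array left out. Treated Atg7-/- against untreated Atg7+/- cells gave 8 to 10 higher with 1 array left out, and the difference of the rapamycin effects 0 in each such fit. Without rapamycin Atg7-/- replicate 3, 8 genes instead of 6 were called higher between untreated genotypes. In that fit 5 instead of 4 were higher with rapamycin in Atg7+/- cells, and 8 instead of 10 in treated Atg7-/- against untreated Atg7+/- cells. The cause was not tested, except that fits with fewer arrays or groups have fewer degrees of freedom. Of single-gene results 2627 kept their side of the threshold and 272 lost their call. Replication genes not called in the main fit were not followed singly, so calls gained among them were not counted there. Over the alternatives the number of all genes called ran from 282 to 974 between untreated genotypes and from 20 to 886 under rapamycin.

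Groups share replicate numbers in the labels, and the numbers were not taken as pairing, since the labels do not describe any. Correlations of same-numbered arrays' deviations from their group means ran from -0.083 to 0.36. No range for differently numbered arrays was set beside them, so these correlations cannot decide whether the numbers mark pairs. Of 16 arrays 8 correlated best with an array of their own number. No chance level was computed for that count, so it cannot decide the question either. With the number as a block 7 replication genes were called higher between untreated genotypes, 9 lower for rapamycin in Atg7-/- cells, and 2 higher between genotypes under rapamycin.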
